A study of Homo sapiens with 6 samples.

Results

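The S100 genes encode small calcium-binding proteins of the EF-hand type, and 10 of them were followed here in oral keratinocytes: S100A2, S100A4, S100A6, S100A7, S100A8, S100A9, S100A10, S100A11, S100A14 and S100A16. They were taken by name from the 58735 genes of the table, each matched by its GENCODE 29 symbol, and all 10 were found. The libraries came from HOK-16B, a line of human oral keratinocytes immortalized with papillomavirus DNA. Of these, 3 libraries were from cells treated with CBD (cannabidiol, which is made by Cannabis and does not intoxicate) and 3 from cells given vehicle alone. By the series description both groups also received an inflammatory stimulus after that pretreatment; its agent, the dose and the times are not given in the sources used here, and no unstimulated group was analysed. All libraries are of the same line, and nothing says that replicates were separate cultures, so each p-value reflects only how these libraries vary, which may be technical. The question put by the design was whether CBD altered transcript levels in stimulated cells.

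S100 proteins mostly work as dimers that change shape when calcium binds and then grip partner proteins. Some act inside the cell on annexins, the cytoskeleton or p53, and some are released and bind surface receptors such as RAGE (gene AGER) and TLR4. In stratified epithelia several are abundant in resting tissue, whereas S100A7, S100A8 and S100A9 are known for their induction in inflamed or wounded skin and mucosa. Most of the family's genes lie together on chromosome 1, on either side of the cornified envelope genes.

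The 10 genes span chr1:151982915-153616986 (GRCh38, GENCODE 29), from S100A10 at the proximal end to S100A14 at the distal end, a stretch of 1634 kb. It holds 73 annotated genes that are not S100 genes, among them those of the epidermal differentiation complex, and of these only SPRR1B, a cornified envelope precursor, reached a mean of 1 FPKM (fragments per kilobase of gene, scaled to the library's total). In the RefSeq promoter table (GRCh38.p14) all 10 members have an entry, with 14 annotated starts in total. The letters TATAAA, with the first base 35 to 25 bases before the start, were found at 4 of these 14 starts, each of another gene, and at 2.64% of all 35116 promoter windows of that table. Exons annotated by GENCODE 29, counted on either strand, cover all 30 bases shown for S100A4, S100A7 and S100A8 and 0 of those shown for S100A9. These 4 are shown because they include S100A7, S100A8 and S100A9, the inducible members; each stretch is 30 bases on the minus strand for S100A4, S100A7 and S100A8 and on the plus strand for S100A9, with TATAAA in capitals.
S100A4, chr1:153545820-153545849: gcctggctggggTATAAAtaggtcagacct
S100A7, chr1:153460662-153460691: caggctgagcctTATAAAggactgctcttt
S100A8, chr1:153391085-153391114: aagcctaaccgcTATAAAaaggagctgcct
S100A9, chr1:153357813-153357842: tcaggagctgccTATAAAtgccgagcctgc

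S100A2 is shown for another reason, as the member with the largest difference among those tested and the only one with the AP-1 letters TGANTCA (either strand) in the 250 bases before a start, a motif held by 6.57% of all promoter windows of that length. The 100 bases before that start run over chr1:153565845-153565944 on the minus strand, with the AP-1 letters in capitals and 21 of the bases in a GENCODE 29 exon.
S100A2: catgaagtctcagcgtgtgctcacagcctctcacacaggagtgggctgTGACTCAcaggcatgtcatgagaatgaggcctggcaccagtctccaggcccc
Other motifs were looked for in the same windows. The C/EBP core was found for S100A11 alone (9.05% of all windows) and the NF-kB letters for S100A14 alone (9.96%). A p53 family half-site was found for S100A7 and S100A16 (5.57%) and not for S100A2. A match of letters is a description of the sequence, not of a bound site. The upstream 250 bases of S100A7 and of its neighbour S100A7A were identical at 241 positions (96.4%).

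Library depth was 19010494 to 22158614 fragments in genes in CBD libraries and 18213784 to 21200871 in vehicle libraries. All 10 keratinocyte markers looked for (such as KRT5, KRT14 and TP63) were well above 1 FPKM, with summed levels of 12326 to 12906 FPKM in CBD libraries and 9992 to 11819 FPKM in vehicle libraries; 8 of the 10 lay above 0 with CBD, with a median log2 difference of 0.16, and 0 were called by limma (5 of 10 had an unadjusted p under 0.05, against 31.4% of all tested genes). The smallest limma adjusted p among them were 0.0621 for PKP1, 0.0855 for KRT14, 0.110 for ITGB4 and 0.120 for SFN, all higher with CBD; with the GC trend removed the differences were 0.20, 0.13, -0.07 and 0.11 in that order of genes, in place of 0.31, 0.28, 0.15 and 0.33. In bulk RNA fewer cells of a type and less RNA per cell cannot be told apart. Because S100A8, S100A9 and S100A12 are also made by myeloid cells, 9 leukocyte markers were read: 8 stayed below 1 FPKM in every library, FCGR3B and CD3E were at 0, and the list summed to 2.34 to 3.25 FPKM with CBD and 2.30 to 3.22 FPKM with vehicle, nearly all of it CD14. Of the other cell types, 5 of 6 fibroblast markers and all 3 endothelial markers stayed below 1 FPKM in every library. COL1A1, the remaining fibroblast marker, had 8.69 ± 0.0249 FPKM with CBD and 7.13 ± 0.416 FPKM with vehicle (SD, n = 3 each). Its log2 difference of 0.25 was not called (limma adjusted p = 0.0608) and was 0.07 with the GC trend removed. Of 6 melanocyte and Langerhans cell markers, 5 stayed below 1 FPKM and TYR, CD207 and CD1A were at 0; the list summed to 1.41 to 1.60 FPKM with CBD and 1.02 to 1.53 FPKM with vehicle. Vehicle replicate 1 stood apart: its first principal component score over all tested genes was -25.1, against 10.3 to 12.7 in CBD libraries and -9.36 to 0.74 in the other vehicle libraries. Mean transcript GC content per read was 50.7% to 50.8% in CBD libraries and 49.6% to 50.3% in vehicle libraries, lowest in vehicle replicate 1.

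These cells expressed S100 genes strongly: 8 of the 10 lay between 72.7 and 493 FPKM over all libraries, S100A4 lay between 2.44 and 4.30 FPKM, and S100A7 was close to the detection limit. None of the 9 members that could be tested passed with CBD (limma, Benjamini-Hochberg adjusted p of at least 0.0828), where 0.352% of the 12517 tested genes did (0.256% higher and 0.0959% lower). A gene was tested when its mean over the 6 libraries was at least 1 FPKM, which left out S100A7. Calls were 0 higher and 0 lower by limma; limma-voom on recovered reads called S100A8 higher, 1 of the 9, where that fit called 7.26% of the 12517 genes higher. With library quality weights 3 of the 9 were called higher (S100A2, S100A6 and S100A8), where 21.7% of the 12517 genes were. At an unadjusted p under 0.05 limma gave S100A8 alone, against 31.4% of all tested genes. Groups did not overlap for 2 of the 9, S100A6 and S100A8, both higher with CBD, whereas they did not overlap for 40.7% of all tested genes, 18.7% higher and 21.9% lower. On the log2(FPKM + 1) scale used for every difference below, which understates the change of low genes, 8 of the 9 lay above 0 with CBD, with a median of 0.15, while 47.4% of all tested genes lay above 0 with a median of -0.01. Among the 4136 tested genes inside the GC range of all 10 members, 49.4% to 59.9%, 69.7% lay above 0 with a median of 0.07. The lower end of that range is S100A7, which was not tested, and the lowest tested member, S100A10, has 51.3%. Without vehicle replicate 1 the count above 0 was 6 of 9 and the median 0.02, and with the GC trend removed as well 4 of 9 and -0.02.

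**Figure D1:**
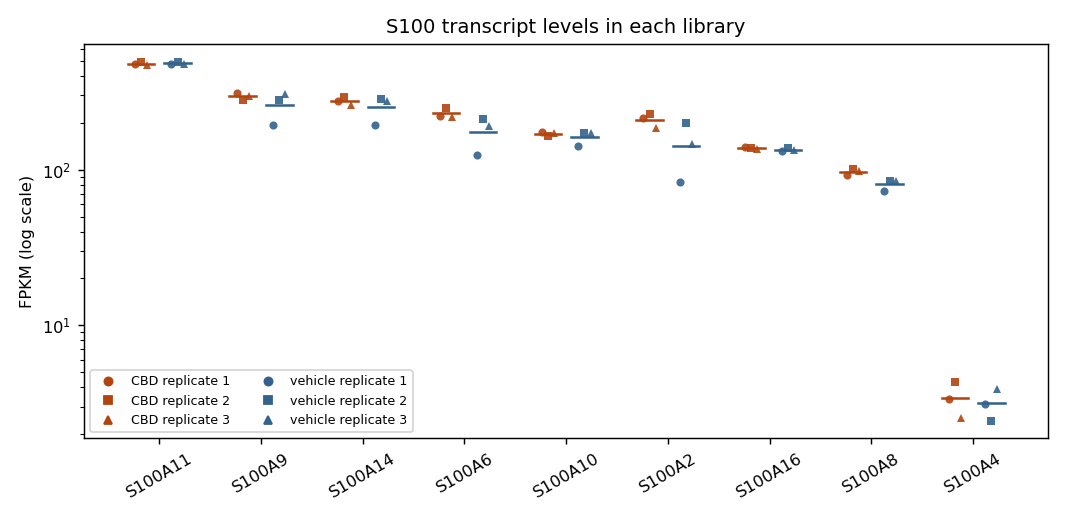
FPKM on a log axis for the 9 tested S100 genes, ordered by level, with CBD libraries left of vehicle libraries; circles, squares and triangles are replicates 1, 2 and 3, and bars are group means. Vehicle replicate 1 (blue circle) lies lowest for 7 of the 9 genes, and S100A6 and S100A8 are the genes whose groups do not overlap.

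S100A8 and S100A9 encode the subunits of calprotectin, a dimer that binds zinc and manganese, starves microbes of these metals and, once released, signals through TLR4 and RAGE. S100A8 had 92.2, 100.4 and 98.7 FPKM in CBD replicates 1 to 3, against 72.7, 85.1 and 84.3 FPKM in vehicle replicates 1 to 3. Every CBD library lay above every vehicle library. The means were 97.1 ± 4.33 and 80.7 ± 6.95 FPKM (SD, n = 3 each), a 1.20-fold ratio, and the difference of 0.27 ± 0.07 (SE; 95% interval 0.09 to 0.44) did not pass (limma adjusted p = 0.0828). The difference was 0.19 without vehicle replicate 1 and 0.24 with the GC trend removed. It passed with limma-voom on recovered reads (adjusted p = 0.0366) and without vehicle replicate 2 (limma adjusted p = 0.0462), within a range of limma adjusted p over all alternatives of 0.00862 to 0.239. Of the 12517 genes, limma-voom called 7.26% higher and the fit without vehicle replicate 2 called 10.1% higher.

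S100A9, its partner, had 312, 280 and 298 FPKM with CBD and 194, 281 and 307 FPKM with vehicle. Vehicle replicate 1 was the lowest and the other vehicle libraries lay among the CBD libraries, so the groups overlapped. The means were 296 ± 15.97 and 261 ± 59.6 FPKM (SD, n = 3 each), and the difference of 0.21 ± 0.16 (SE) had a 95% interval of -0.18 to 0.60 (limma adjusted p = 0.400). Without vehicle replicate 1 it was 0.01, and with the GC trend removed 0.12. Per length S100A9 exceeded S100A8 in every library: the ratio of S100A8 to S100A9 FPKM was 0.296, 0.359 and 0.332 with CBD and 0.375, 0.302 and 0.274 with vehicle. The groups overlapped (exact permutation p = 0.8, two-sided), the smallest p that 3 against 3 libraries allow being 0.1.

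S100A7, psoriasin, an antimicrobial protein of inflamed skin, was counted with 1, 1 and 0 reads in CBD replicates 1 to 3, against 6, 4 and 10 reads in vehicle replicates 1 to 3. In FPKM this was 0.0782, 0.0806 and 0 with CBD and 0.490, 0.340 and 0.951 with vehicle. The groups did not overlap, and the reads summed to 2 with CBD and 20 with vehicle, a depth-adjusted ratio of 0.0953 with a 95% counting interval of 0.0108 to 0.392 (exact binomial; counting error only). The exact permutation p was 0.1, the smallest possible, and without the filter on low values limma gave an adjusted p of 0.189. S100A7A, the near-identical copy, had 0 to 1 reads per CBD library and 0 to 3 per vehicle library, and reads of either copy may have been assigned to the other. S100A12, calgranulin C, a relative of S100A8 and S100A9 that was also under the level tested, lay the other way, with 16, 14 and 13 reads in CBD libraries and 6, 5 and 11 in vehicle libraries. Its groups did not overlap either (exact permutation p = 0.1), and the ratio was 1.86 (95% counting interval 1.09 to 3.27). Among tested genes 40.7% did not overlap. No such share was worked out for genes below the level tested, such as S100A7 and S100A12.

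**Figure D2:**
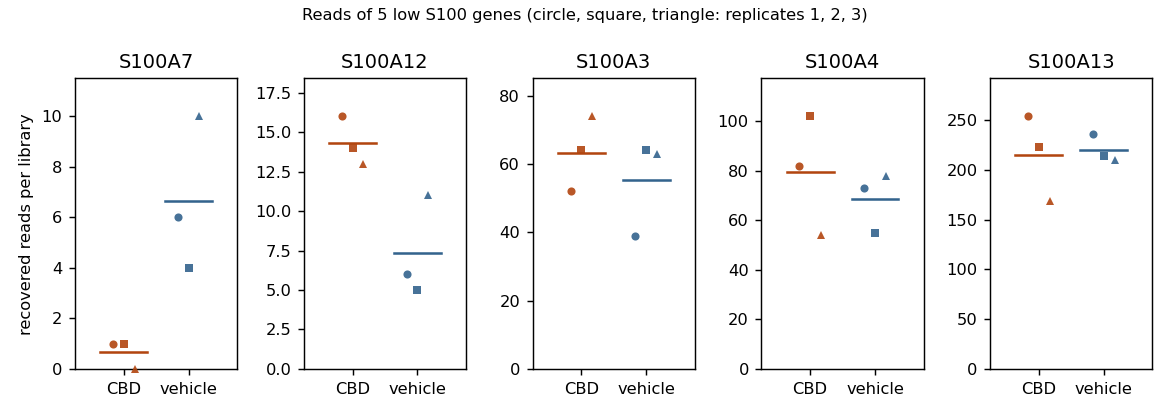
Reads per library, recovered from FPKM, for 5 S100 genes of low level, with CBD left of vehicle in each panel, linear axes from 0 and bars at the group means. S100A7 had at most 1 read in a CBD library and at least 4 in a vehicle library, S100A12 13 to 16 against 5 to 11, and S100A3, S100A4 and S100A13 overlapped.

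S100A2, a nuclear S100 protein of basal keratinocytes whose gene is a known target of p53 and p63, had the largest difference among the 9 tested members. It stood at 215, 226 and 187 FPKM in CBD libraries, against 83.4, 199 and 147 FPKM in vehicle libraries. Vehicle replicate 2 lay above CBD replicate 3, and vehicle replicate 1 had 0.482 times the mean of the other vehicle libraries. The means were 209 ± 20.4 and 143 ± 57.7 FPKM (SD, n = 3 each), a 1.46-fold ratio, with a difference of 0.63 ± 0.29 (SE; 95% interval -0.05 to 1.30; limma adjusted p = 0.182). Without vehicle replicate 1 the difference was 0.29, and without vehicle replicate 2 it was 0.91 and passed (limma adjusted p = 0.0461), as did 10.1% of the 12517 genes in that direction.

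S100A6, calcyclin, which binds annexins and the ubiquitin-pathway protein CACYBP, had 222, 250 and 217 FPKM with CBD and 125, 210 and 190 FPKM with vehicle. The groups did not overlap. The means were 230 ± 18.1 and 175 ± 44.5 FPKM (SD, n = 3 each), a 1.31-fold ratio, and the difference of 0.42 ± 0.18 (SE; 95% interval -0.01 to 0.86) did not pass (limma adjusted p = 0.170). It was 0.20 without vehicle replicate 1 and 0.26 with the GC trend removed, S100A6 having the highest transcript GC content of the members at 59.9%. S100A2 and S100A6 were both highest in CBD replicate 2 and lowest in vehicle replicate 1, and their log2 levels had a Pearson r of 0.985 over the 6 libraries, given as a description only since the libraries share those shifts.

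S100A14, a membrane-associated member of epithelial cells, had 274, 292 and 262 FPKM with CBD and 194, 285 and 278 FPKM with vehicle, so that only vehicle replicate 1 stood outside the CBD range. The difference of 0.15 ± 0.15 (SE; limma adjusted p = 0.501) had a 95% interval of -0.20 to 0.50 and was -0.03 without that library and 0.09 with the GC trend removed. S100A10, also called p11, which joins with annexin A2 at the cell membrane, had 175, 165 and 172 FPKM with CBD and 142, 171 and 173 FPKM with vehicle. Vehicle replicate 1 was again the lowest and the groups overlapped, with a difference of 0.08 ± 0.08 (SE; limma adjusted p = 0.526) that was -0.01 without it. ANXA2, the gene of its partner, had 93.3, 91.5 and 89.8 FPKM with CBD and 98.1, 95.4 and 102 FPKM with vehicle. Every CBD library lay below every vehicle library (difference -0.11, limma adjusted p = 0.177). Groups did not overlap in that direction for 21.9% of all tested genes, and no such share was worked out for ratios. The ratio of S100A10 to ANXA2 FPKM was 1.88, 1.81 and 1.91 with CBD and 1.44, 1.79 and 1.69 with vehicle, without overlap. The exact permutation p was 0.1 (two-sided), the smallest possible, and the log2 difference in ratio was 0.19, or 0.10 without vehicle replicate 1.

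**Figure D3:**
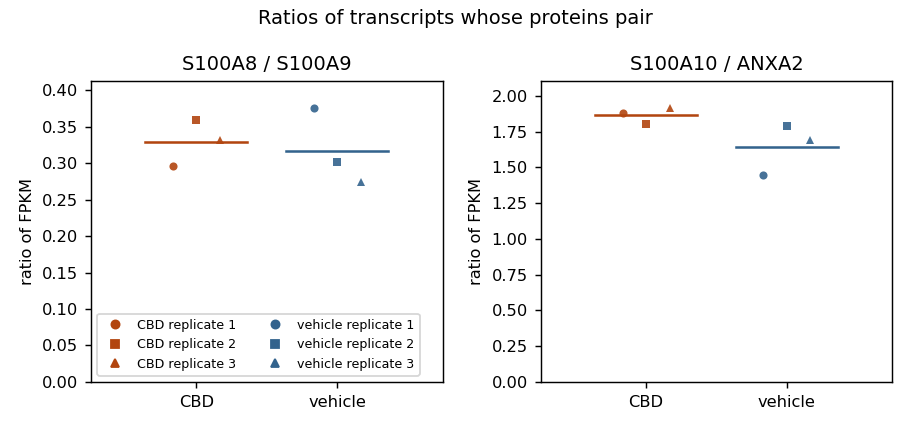
Ratio of FPKM for S100A8 over S100A9 and for S100A10 over ANXA2 in each library, CBD left of vehicle, on linear axes from 0; symbols are replicates and bars group means. The S100A8 to S100A9 ratio overlapped between groups, while the S100A10 to ANXA2 ratio was 1.81 to 1.91 with CBD and 1.44 to 1.79 with vehicle.

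S100A11 and S100A16 were the steadiest members. S100A11, an annexin A1 partner and a growth regulator of keratinocytes, was the most abundant at 476, 493 and 470 FPKM with CBD and 481, 489 and 478 FPKM with vehicle. The vehicle libraries lay within the range of the CBD libraries, and the difference of -0.01 ± 0.05 (SE; limma adjusted p = 0.907) had a 95% interval of -0.12 to 0.10. Its sign turned, to 0.0064, with median-ratio scaling. S100A16, a widely expressed member of the family, had 139, 139 and 136 FPKM with CBD and 133, 138 and 133 FPKM with vehicle, a difference of 0.04 ± 0.04 (SE; 95% interval -0.07 to 0.14; limma adjusted p = 0.598) that turned to -0.09 with the GC trend removed. In both genes vehicle replicate 1 was close to the other vehicle libraries, at 0.994 and 0.978 times their mean, unlike S100A2, S100A6, S100A9 and S100A14, where it had 0.482 to 0.688 times that mean. S100A4, a binder of nonmuscle myosin better known from fibroblasts and motile tumour cells, had 3.35, 4.30 and 2.55 FPKM with CBD and 3.12, 2.44 and 3.88 FPKM with vehicle (54 to 102 and 55 to 78 reads). The groups overlapped, and the difference of 0.08 ± 0.17 (SE; limma adjusted p = 0.766) had the 95% interval -0.33 to 0.49. S100A4 shares its annotated span with S100A3 on the same strand, so no strand setting could tell reads of their shared stretch apart. The strand setting is not given, so this also holds for genes overlapping on opposite strands, such as S100A1 and S100A13.

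**Figure D4:**
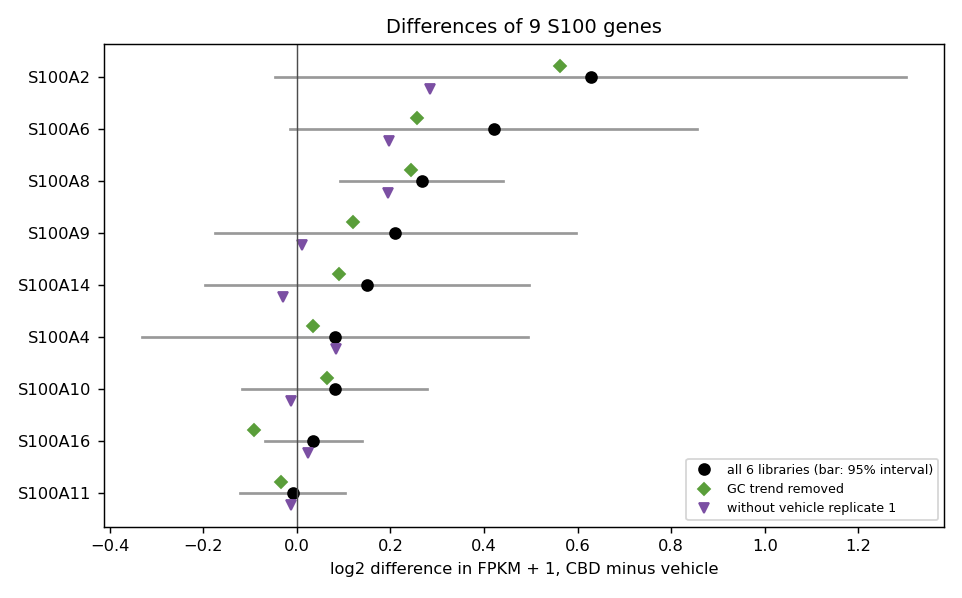
Difference in log2(FPKM + 1), CBD minus vehicle, for the 9 tested S100 genes: black points with 95% intervals use all 6 libraries, green diamonds follow removal of the GC trend, and violet triangles leave out vehicle replicate 1. The interval excludes 0 for S100A8 alone, unadjusted for the number of genes tested, and the violet points of S100A9, S100A10 and S100A14 lie between -0.03 and 0.01.

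By level per length, the order with CBD was S100A11, S100A9, S100A14, S100A6, S100A2, S100A10, S100A16, S100A8, S100A4 and S100A7. With CBD the library ranges of neighbours overlapped for S100A9 with S100A14 and for S100A6 with S100A2, and for no other neighbours. In vehicle libraries the order was the same except that S100A10, at 162 ± 17.6 FPKM, stood above S100A2, and the wider spread made each overlap its neighbour from S100A9 through S100A14, S100A6, S100A10 and S100A2 to S100A16. The 10 genes summed to 1908, 1950 and 1842 FPKM in CBD libraries and 1427, 1861 and 1796 FPKM in vehicle libraries, or 0.209% to 0.222% of all reads in genes with CBD and 0.157% to 0.212% with vehicle. S100A11 made up 24.9% to 25.5% of the summed FPKM with CBD and 26.3% to 33.7% with vehicle, its highest share being in vehicle replicate 1, where the sum was lowest. That library was the lowest of the 6 for 7 of the 9 tested members and for 28.6% of all tested genes. The summed keratinocyte markers were lowest in it as well, and their part in the S100 values was not tested.

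Of the 11 other S100 genes, S100A3 and S100A13 were expressed high enough to be tested and neither passed. S100A13, a carrier in the unconventional release of cytokines, had 4.28 ± 0.557 FPKM with CBD and 4.63 ± 0.217 FPKM with vehicle (SD, n = 3 each; limma adjusted p = 0.459). S100A3, a protein of hair cuticle, had 2.98 ± 0.740 FPKM with CBD and 2.73 ± 0.835 FPKM with vehicle (limma adjusted p = 0.744). S100A1 stood at 0.0960 to 0.285 FPKM with CBD and 0.0722 to 0.370 with vehicle, and S100P at 0.101 to 0.164 with CBD and 0.0796 to 0.274 with vehicle. S100A5 had at most 2 reads and S100G at most 1 in a library, and S100B, S100Z and S100A7L2 had 0 in all 6; a count of 0 allows up to 3 reads, or 0.126 to 0.145 FPKM for a gene of 1 kb with CBD and 0.131 to 0.153 FPKM with vehicle. The 10 annotated S100 pseudogenes, 8 of them copies of S100A11, took at most 2 reads in a library.

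The larger proteins that carry an S100 domain fused to repeats, such as filaggrin, mark late epidermal differentiation. All 7 were below the level tested: FLG, the highest, had 0.870 ± 0.120 FPKM with CBD and 0.936 ± 0.131 FPKM with vehicle (SD, n = 3 each), and RPTN was at 0. SPRR1B, the tested gene lying between the S100 clusters, had 6.90 ± 0.302 FPKM with CBD and 7.46 ± 0.186 FPKM with vehicle (difference -0.10; limma adjusted p = 0.225).

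Genes of proteins that S100 members bind were measured alongside. Of 11 intracellular partners, all tested, 0 rose and 0 fell by limma (4 of 11 had an unadjusted p under 0.05, 1 higher and 3 lower, against 31.4% of all tested genes), and their median difference was -0.03. ANXA11, a partner of S100A6, had 19.6 ± 0.865 FPKM with CBD and 16.5 ± 1.34 with vehicle (limma adjusted p = 0.0867). CACYBP had 22.7 ± 0.279 FPKM with CBD and 26.5 ± 2.37 with vehicle (limma adjusted p = 0.0968), ANXA1 72.1 ± 1.12 with CBD and 84.6 ± 10.2 with vehicle (limma adjusted p = 0.132), and ANXA5 82.2 ± 2.60 with CBD and 91.9 ± 6.58 with vehicle (limma adjusted p = 0.150). With the GC trend removed the difference for ANXA11 was 0.17 in place of 0.24 and for CACYBP -0.11 in place of -0.21. For ANXA1 it was -0.07 in place of -0.22 and for ANXA5 -0.09 in place of -0.16. Of the 7 surface binding proteins 5 were tested and 0 rose or fell by limma, with 1 of 5 at an unadjusted p under 0.05, against 31.4% of all tested genes. That was BSG, basigin, a receptor for S100A9, with 112 ± 4.19 FPKM with CBD and 94.7 ± 4.08 with vehicle (SD, n = 3 each), a difference of 0.24 (limma adjusted p = 0.0636) that was 0.04 with the GC trend removed. RAGE (AGER) stood at 1.81 ± 0.325 FPKM with CBD and 1.57 ± 0.152 with vehicle (limma adjusted p = 0.456), and ALCAM at 20.9 ± 0.535 FPKM with CBD and 23.7 ± 2.64 with vehicle (limma adjusted p = 0.181). The difference for ALCAM was -0.17, or -0.01 with the GC trend removed and -0.09 without vehicle replicate 1. The difference for MCAM was 0.14 (limma adjusted p = 0.197), or -0.01 with the GC trend removed, and that for AGER was 0.12, or -0.03. TLR4 was below 0.1 FPKM in both groups.

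The transcription factor genes linked to S100 promoters were measured as well. Of 15, all tested, 2 rose and 1 fell by limma, against 0.352% called among all tested genes. At an unadjusted p under 0.05 were 10 of 15, 8 higher and 2 lower, against 31.4% of all tested genes, and groups did not overlap for 8 higher and 2 lower, against 40.7%. The list's median was 0.36 with 11 of 15 above 0, where all tested genes had a median of -0.01 with 47.4% above 0; with the GC trend removed the list's median was 0.12. KLF4, a factor of keratinocyte differentiation, rose to 16.6 ± 0.404 FPKM with CBD, against 12.8 ± 0.413 with vehicle (SD, n = 3 each; difference 0.36 ± 0.05 SE; limma adjusted p = 0.0452). JUND, an AP-1 subunit gene, rose to 53.5 ± 1.93 FPKM with CBD, against 36.7 ± 2.82 with vehicle (difference 0.53 ± 0.07 SE; limma adjusted p = 0.0452), and the difference was 0.17 with the GC trend removed (limma adjusted p = 0.325). FOSL1, another AP-1 subunit gene, fell to 2.91 ± 0.407 FPKM with CBD, against 4.94 ± 0.182 with vehicle (limma adjusted p = 0.0470). Its difference was -0.61, or -0.78 with the GC trend removed (limma adjusted p = 0.0455). With vehicle replicate 1 left out as well it was -0.75 and not called (limma adjusted p = 0.0700). CEBPA, of the C/EBP family known to act on S100A8 and S100A9, had 2.76 ± 0.106 FPKM with CBD and 1.45 ± 0.323 with vehicle (limma adjusted p = 0.0547), a difference of 0.63 that was 0.34 with the GC trend removed. Each of the 3 calls ended when any CBD replicate, or vehicle replicate 3, was left out, at limma adjusted p of 0.128 to 0.209, and that of FOSL1 also without vehicle replicate 1 (0.0508). All 3 calls also ended with no filter on low values (limma adjusted p = 0.134), with the same FPKM sum per library (0.0528) and without an intensity trend (0.0649 to 0.0661), and KLF4 was not called with the GC trend removed (0.0788). Over the alternatives KLF4 and JUND were called in 8 of 19 and FOSL1 in 7 of 18.

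Among 15 genes that inflamed keratinocytes switch on with S100A7, S100A8 and S100A9, 13 were tested and 0 rose or fell by limma (unadjusted p under 0.05 for 5 of 13, 1 higher and 4 lower, against 31.4% of all tested genes). Their median difference was -0.19, with 4 above 0. SERPINB3, a serpin of squamous epithelium, had 6.70 ± 0.516 FPKM with CBD and 9.52 ± 1.14 with vehicle (limma adjusted p = 0.0604), and its neighbour SERPINB4, whose reads may be split with it because the sequences are alike, had 1.33 ± 0.267 with CBD and 1.89 ± 0.0931 with vehicle (0.0985). KRT16, a keratin of activated epidermis, had 153 ± 6.81 FPKM with CBD and 116 ± 17.7 with vehicle (limma adjusted p = 0.0763), and KRT6B 20.4 ± 1.30 with CBD and 23.8 ± 1.38 with vehicle (0.0933). With the GC trend removed the difference for SERPINB3 was -0.30 in place of -0.45, for SERPINB4 -0.18 in place of -0.32 and for KRT16 0.24 in place of 0.42. That for KRT6B grew in size, to -0.32 in place of -0.21. DEFB4A was at 0 in all libraries.

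**Figure D5:**
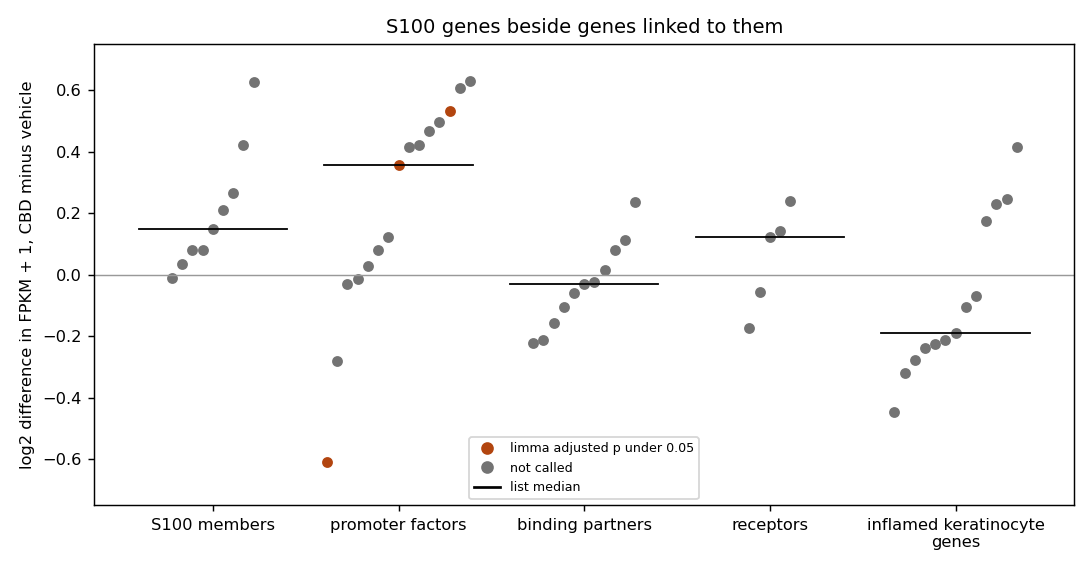
Difference in log2(FPKM + 1), CBD minus vehicle, for the tested genes of 5 lists; each point is a gene, ordered by value within its list, orange where the limma adjusted p is under 0.05, and lines are list medians. The medians are 0.15 for S100 members, 0.36 for promoter factors, -0.03 for binding partners, 0.12 for receptors and -0.19 for inflamed keratinocyte genes, and the called genes are KLF4, JUND and FOSL1.

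Across all tested genes, those whose log2 levels followed S100A8 most closely over the 6 libraries were CBR1, ALAD and SEPT8 (Pearson r of 0.99 or more for each). For S100A9 they were FEN1, CCDC61 and S100A10 (r of 0.99 or more). With 6 libraries and 12517 genes such values describe these libraries and carry no test.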

How the data were processed

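The deposited table holds FPKM per gene and library, made by the authors and named so per the file headers, 1 column per library. Reads were counted with featureCounts 1.5.0-p3, and HISAT2 2.0.5 was also used, per the submitters' processing notes. Build, annotation, strand setting and filters are not given in the sources used here. All 58735 identifiers matched GENCODE 29 (GRCh38). Multiplying by exon length and a factor per library gave whole reads for 100% of values (tolerance 0.01), so depth is known. FPKM does not correct for GC content or for a change in abundant genes.

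Treatment labels gave the groups and titles the replicate numbers; the description field numbers the line differently in each sample, and the cell line tag was used. The fit was limma 3.58.1 (R 4.3.3) on log2(FPKM + 1), trended prior, group as the only term, for 12517 genes with a mean of at least 1 FPKM, two-sided, Benjamini-Hochberg adjustment, threshold 0.05. The fit was tested on simulated data in which no library stood apart, unlike vehicle replicate 1 here. Ratios were tested by exact permutation. GC correction removed a loess trend (span 0.3) per library. Reads of replicates differed by more than sampling noise. Members, lists and tests were chosen with earlier results of these data known. Named genes are the members, the other S100 genes, up to 4 per list with the smallest adjusted p, and the 3 genes most like S100A8 and S100A9 (those for S100A7 are not reported here); ANXA2, S100A12 and the list genes given at 0 or as a list's highest level were also named. Promoter sequences are RefSeq's (GRCh38.p14). Python 3.11.15 with pandas 2.3.3 was used. Counting intervals cover counting error only.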

Additional observations from a re-analysis of the deposited data

How the results depend on the processing

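No S100 member was called lower under any of 19 alternatives, and none was called higher except 3 of 9 with library quality weights (S100A2, S100A6 and S100A8), where 21.7% of all genes were called higher, 1 with limma-voom on recovered reads (S100A8) and, leaving out 1 library at a time, 0 to 2 (S100A2 and S100A8 without vehicle replicate 2). Over all genes, called higher and lower numbered 32 and 12 in the reported fit, 0 and 0 with no filter on low values, 427 and 305 at a mean of at least 5 FPKM, 56 and 17 with median-ratio scaling, 2 and 2 with the same FPKM sum per library, 54 and 19 after quantile normalization, 0 and 1 without an intensity trend, 2711 and 2863 with library quality weights, 4 and 4 with GC correction, 909 and 837 with limma-voom, 0 and 0 with GC correction without vehicle replicate 1 (chosen after seeing the data), and 0 to 1267 and 0 to 1084 with 1 library left out. With a replicate block, and with a replicate block with GC correction, 0 and 0 genes were called by limma, KLF4, JUND and FOSL1 included (limma adjusted p of 0.0808 to 0.0905 with the block alone), though 3676 and 2217 then had an unadjusted p under 0.05. Same-numbered libraries did not deviate together (correlations of -0.003, 0.052 and 0.024). The labels do not say whether they were handled together, and these correlations cannot exclude it. By limma 0 genes in all were called without CBD replicate 1, CBD replicate 2 or vehicle replicate 3 and 1 without CBD replicate 3, against 81 without vehicle replicate 1 and 2351 without vehicle replicate 2. Where limma called 0 with a library left out, with no filter, or with GC correction without vehicle replicate 1, 2273 to 4670 genes had an unadjusted p under 0.05.

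Signs turned where differences were small, and the cause was not tested. With library quality weights S100A4 was -0.11, S100A9 -0.022, S100A10 -0.010, S100A11 0.0040 and S100A3 -0.14. With GC correction, with and without the replicate block, S100A16 was -0.092, S100A3 -0.039, MCAM -0.010, AGER -0.026 and ITGB4 -0.067. With GC correction without vehicle replicate 1 S100A9 was -0.051, S100A10 -0.016, S100A14 -0.067, S100A16 -0.064, S100A3 -0.20, ALCAM 0.021, AGER -0.024 and ITGB4 -0.038. S100A16 was -0.037 after quantile normalization and S100A11 0.0064 with median-ratio scaling. With 1 library left out, S100A4 ranged from -0.062 to 0.23, S100A10 from -0.012 to 0.13, S100A11 from -0.029 to 0.0047, S100A14 from -0.030 to 0.25 and S100A3 from -0.097 to 0.23. In the same runs the difference in log2 ratio, CBD minus vehicle, ranged from -0.040 to 0.19 for S100A8 to S100A9. For S100A10 to ANXA2 that difference ranged from 0.10 to 0.25. S100A2, S100A6, S100A7 and S100A8 kept their sign under every alternative that gave them a value. For S100A6, S100A7 and S100A8 the groups did not overlap, so leaving out a library could not turn the sign. Besides those runs S100A7 had only the fit with no filter, which gives the same difference. S100A7 rests on at most 10 reads per library, S100A12 on at most 16 and S100A1 on at most 22, which limits their precision, and the other untested S100 genes had at most 8.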
